A study of Mus musculus with 6 samples.

Results

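Axon guidance ligands and receptors were examined in BALI-Multiome RNA libraries from the dentate gyrus (DG) and the CA1 of the adult mouse hippocampus. The members were taken by name, as every listed gene whose symbol belongs to the Eph receptors, ephrins, semaphorins, plexins, neuropilins, Robo receptors, Slits, netrin receptors of the Unc5 and Dcc type, netrins or netrin-Gs. The name pattern was chosen with earlier results of these data known, and it matched 36 of the 7507 listed genes. One of them, Unc50, matches by its letters only and encodes a protein of the inner nuclear membrane, so it was counted as a member but as neither ligand nor receptor.

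BALI writes a barcode onto molecules inside a tissue section by repeated ligation, with light used to choose the areas that receive each index. In 3 coronal sections of fresh frozen brain from adult mice, the DG (labelled as its granular layer) and the CA1 were illuminated one after the other and ligated with their own last digit of a 4-digit barcode. The molecules of a section were amplified and sequenced together, and reads were split by barcode afterwards. Each section thus gave 1 DG and 1 CA1 set of reads, which are called libraries here. No genotype or strain was given for the RNA samples, and the animals' age was 12 weeks in the sample labels but 8 to 12 months in the protocol. Chromatin accessibility, profiled in the same tissue, was not analysed here.

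Eph receptors are tyrosine kinases that are bound by ephrins on the surface of neighbouring cells. Plexins are the receptors of the semaphorins and take neuropilins as partners for the secreted ones, Slits bind Robo receptors, and netrins bind Dcc and the Unc5 receptors. These systems steer growing axons during development, and in the adult hippocampus several of them act at synapses and dendritic spines.

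The values are counts of unique molecular identifiers (UMIs), each standing for a captured molecule, and levels are given as the share of a library's gene-assigned UMIs. Sections 1, 2 and 3 gave 17999, 4572 and 6298 UMIs for DG and 9357, 2844 and 4865 for CA1. In every section the DG library exceeded the CA1 library in depth, by 1.29 to 1.92 times. A count of 0 was taken to allow up to 3 UMIs, a share of 0.0167% in the deepest library and 0.105% in the shallowest. The exact 95% interval (Clopper-Pearson) of a count of 0 is wider and ends at 0.130% in the shallowest library. These limits and the exact 95% intervals below cover counting error only. The study calls its replicates biological, but the sources used here do not state that the sections came from separate animals, so p-values measure only the spread between these sections.

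The marker lists of the regions were thinly covered. Every listed gene had at least 1 UMI over the 6 libraries, so percentages and medians of all listed genes refer to detected genes. The DG markers Prox1, C1ql2, Dsp, Tdo2, Plk5 and Il16 and the CA1 markers Spink8 and Gm2115 were not listed. Of 12 DG granule cell markers 6 were listed, with 20 UMIs in the DG and 4 in the CA1, and their summed share lay between 0.0476% and 0.0875% in the DG libraries and between 0 and 0.0352% in the CA1 libraries. Of 9 CA1 pyramidal cell markers 7 were listed, with 8 UMIs in the DG and 14 in the CA1, at 0.0222% to 0.0437% and 0.0352% to 0.107% of a library. In the DG the markers Calb1 and Lct were at 0 UMIs, and in the CA1 the marker Fibcd1 was.

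The 36 guidance genes held 327 of 45935 UMIs, 215 in the DG and 112 in the CA1. Their share was 0.772% in DG section 1 (95% interval 0.650% to 0.911%), 0.919% in DG section 2 (0.663% to 1.24%) and 0.540% in DG section 3 (0.374% to 0.754%). In the CA1 it was 0.759% in section 1 (0.593% to 0.956%), 0.492% in section 2 (0.269% to 0.825%) and 0.555% in section 3 (0.366% to 0.806%). The ranges of the regions overlapped, and in sections 1 and 3 the DG and the CA1 were nearly level, with log2 ratios of DG over CA1 of 0.03 and -0.04. Section 2 alone stood apart, with a log2 ratio of 0.90. The mean over 3 sections was 0.744% ± 0.191 (SD) for DG and 0.602% ± 0.139 for CA1, a log2 ratio of 0.30 that was smaller than the SD of 0.52 between sections and was -0.0018 without section 2. Without Epha5 the remaining 35 genes were higher in the DG in each of the 3 sections in place of 2 of them, with log2 ratios of 0.14, 1.32 and 0.10 in sections 1, 2 and 3, means of 0.480% ± 0.0716 and 0.350% ± 0.131, and overlapping ranges. In libraries of tissue areas, fewer cells of a type and less RNA per cell cannot be told apart in any of these shares.

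**Figure D1:**
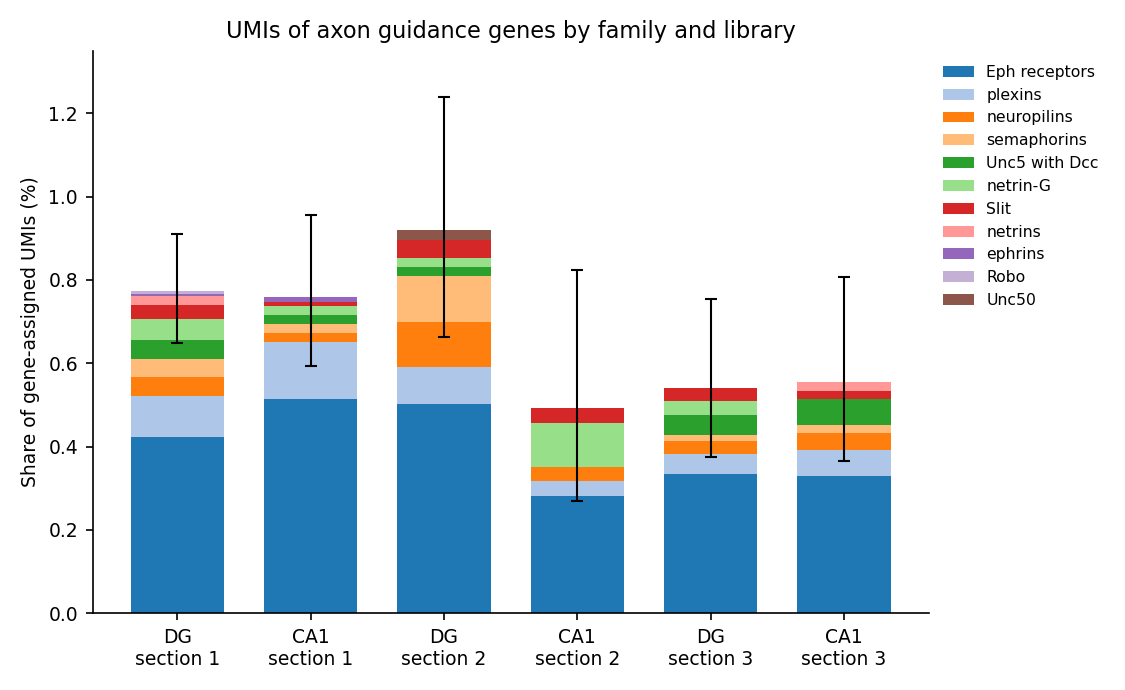
Share of gene-assigned UMIs (%, vertical axis from 0) taken by each guidance family in the DG and CA1 library of each section, stacked, with the exact 95% interval of the summed share as a black bar. Eph receptors make up the largest block in all 6 libraries, and the summed share runs from 0.492% in CA1 section 2 to 0.919% in DG section 2.

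Receptors took most of the guidance UMIs in both regions. The 21 receptor genes held 272 UMIs (83.2% of the total of the members) and the 14 ligand genes 54 UMIs (16.5%). Receptors made up between 71.4% (95% interval 41.9% to 91.6%) of the guidance UMIs in CA1 section 2 and 91.5% (82.5% to 96.8%) in CA1 section 1. The receptor share averaged 0.600% ± 0.131 of a DG library and 0.513% ± 0.172 of a CA1 library (SD, n = 3 sections), and the DG had the higher value in 1 of 3 sections. The ligand share averaged 0.137% ± 0.0505 for DG and 0.0888% ± 0.0449 for CA1. It was 0.156% against 0.0641% in section 1, 0.175% against 0.141% in section 2 and 0.0794% against 0.0617% in section 3. In 3 of 3 sections the ligand share was thus higher on the DG side, while the ranges of the regions overlapped. Summed over sections it was 1.86 times as high in the DG, with an exact 95% interval of the odds ratio of 0.980 to 3.80. This interval covers counting error and not the spread between sections. It was 1 of 20 groupings of the members that were summed, and no test was made on these sums.

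The Eph receptors were the largest family, with 8 genes and 192 UMIs, or 58.7% of all guidance UMIs. The 6 EphA receptors held 184 of these and the 2 EphB receptors 8. The family took 0.422%, 0.503% and 0.333% of the DG libraries of sections 1, 2 and 3 and 0.513%, 0.281% and 0.329% of the CA1 libraries. Its mean was 0.420% ± 0.0848 for DG and 0.374% ± 0.122 for CA1, with overlapping ranges, and summed over sections the ratio of the shares was 0.985 (95% interval of the odds ratio 0.729 to 1.34). The ephrins, their ligands, had 2 listed genes, Efna5 and Efnb1, with 1 UMI each.

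Epha5, an EphA receptor tyrosine kinase, was the guidance gene with the most UMIs in all 6 libraries (mm10, chr5:84054761-84417818, minus strand, 16 exon blocks in the RefSeq annotation of GRCm38.p6). In sections 1, 2 and 3 the DG libraries held 46, 18 and 9 of its UMIs and the CA1 libraries 27, 8 and 9, 117 in all. It held 35.8% of all guidance UMIs and 60.9% of the Eph receptor UMIs (95% interval 53.7% to 67.9%), and by UMIs it was number 25 of the 7507 listed genes. Its place among all genes was between number 11 in DG section 2 and number 57 in DG section 3. As a part of the guidance UMIs, Epha5 ran from 26.5% (95% interval 12.9% to 44.4%) in DG section 3 to 57.1% (28.9% to 82.3%) in CA1 section 2.

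Within sections, the DG and the CA1 did not differ in Epha5 in a common direction. In section 1 it took 0.256% of the DG library and 0.289% of the CA1 library, an odds ratio of 0.885 with an exact 95% interval of 0.539 to 1.48. In section 2 it took 0.394% of the DG library and 0.281% of the CA1 library, an odds ratio of 1.40 (0.579 to 3.73). In section 3 it took 0.143% of the DG library and 0.185% of the CA1 library, an odds ratio of 0.772 (0.271 to 2.20). The share was therefore lower in the DG in 2 of 3 sections. Fisher's exact test, two-sided, which compares the 2 libraries of a section and not the regions, gave p = 0.622, 0.546 and 0.638 in sections 1, 2 and 3. Both libraries of section 3 lay below the other 4, and the share over both regions was 0.161% in section 3 (95% interval 0.0956% to 0.255%), 0.267% in section 1 (0.209% to 0.335%) and 0.351% in section 2 (0.229% to 0.513%). The interval of section 3 ended at 0.255%, just above the 0.209% and 0.229% at which those of sections 1 and 2 began.

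Over the 3 sections Epha5 averaged 0.264% ± 0.126 of a DG library and 0.252% ± 0.0578 of a CA1 library (SD, n = 3), with overlapping ranges. On log2 CPM (UMIs scaled to a common library total, with 0.5 UMI added) the difference of DG minus CA1 was -0.04 with an SD of 0.42 between sections, and an exact permutation test over the 6 libraries, two-sided, gave p = 1, where 0.1 is the smallest value that 3 against 3 allow. Summed over sections, 73 of 28869 DG UMIs and 44 of 17066 CA1 UMIs gave an odds ratio of 0.981, with an exact 95% interval of 0.665 to 1.46. In edgeR's quasi-likelihood test over all genes that passed the filter on low counts, the log2 fold change was 0.11 ± 0.35 (SE), with a Benjamini-Hochberg adjusted p of 0.910. TMM scaling shifted the median log2 fold change of the 43 genes tested by 0.12 relative to scaling by total UMIs, under which the value for Epha5 was -0.0019, so the sign of the difference depended on the scaling.

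**Figure D2:**
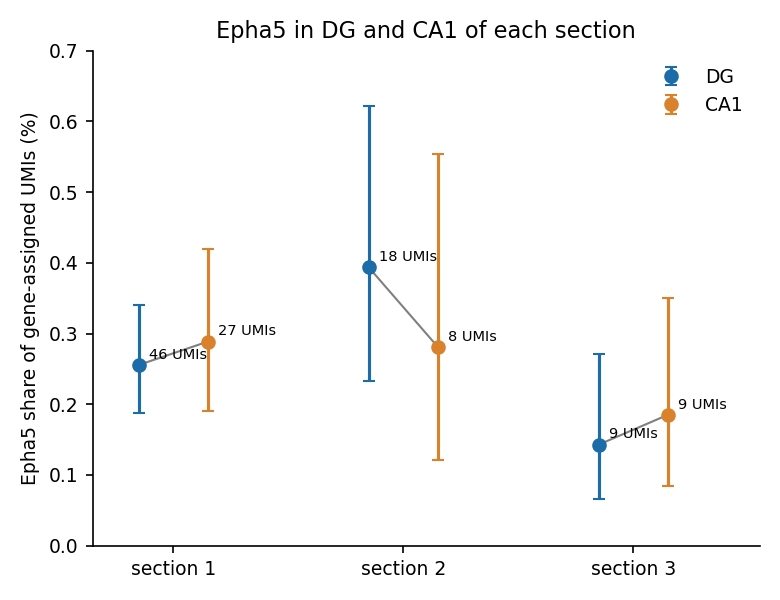
Epha5 as a share of gene-assigned UMIs (%, vertical axis) in the DG and the CA1 of each section, with exact 95% intervals and the UMIs behind each point. Grey lines join the libraries of a section, and the line rises from DG to CA1 in sections 1 and 3 and falls in section 2.

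Epha5 was the only guidance gene among the 43 genes that passed the filter of the main edgeR fit. At an adjusted p of 0.05, edgeR called 0 of these 43 genes (0%), 3 had an unadjusted p under 0.05, and DESeq2 called 0 with 0 under that value. The other 35 members had too few UMIs for this fit, and 9 members (25% of the 36, against 13.3% of all listed genes) had at least 10 UMIs over the 6 libraries.

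Epha4, which binds ephrins of both the A and the B type, was the guidance gene with the second most UMIs. In sections 1, 2 and 3 it reached 15, 3 and 5 UMIs for DG and 8, 0 and 3 for CA1. The highest share, 0.0855%, was in CA1 section 1 and the lowest, 0 of 2844 UMIs, in CA1 section 2. There the limit of 3 UMIs is a share of 0.105%, and the exact 95% interval ends at 0.130%. The log2 difference of DG minus CA1 was 0.78 with an SD of 1.18 between sections (exact permutation p = 0.4). Epha10, an Eph receptor whose kinase domain is regarded as inactive, had 7, 1 and 0 UMIs (DG) and 3, 0 and 2 UMIs (CA1). Its exons overlap those of 1700125G02Rik on the other strand, and the counting did not use strand. Reads in the shared stretch could therefore not be assigned to 1 of these genes by strand, and the count is uncertain. Epha7, a receptor for ephrin-As, had 5, 1 and 1 UMIs (DG) and 3, 0 and 2 UMIs (CA1). Both genes were at 0 in CA1 section 2, and neither separated the regions. Epha6 and Ephb6 had 7 UMIs each. Without Epha5, the other 7 Eph receptors took 0.156% ± 0.0417 of the DG libraries and 0.123% ± 0.114 of the CA1 libraries (SD, n = 3), with 0 UMIs in CA1 section 2.

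The semaphorin receptors came next. Plexins had 5 genes and 42 UMIs, at 0.0784% ± 0.0273 of a DG library and 0.0786% ± 0.0539 of a CA1 library (SD, n = 3 sections). Plxna2, a class A plexin, reached 8, 1 and 1 UMIs for DG and 3, 1 and 2 for CA1 in sections 1, 2 and 3. Its share was higher in the CA1 in 2 of 3 sections and its log2 difference of DG minus CA1 was -0.49 with an SD of 0.74 (exact permutation p = 0.2, adjusted p = 0.9 over all 999 genes with at least 10 UMIs). From summed UMIs, which give the deeper libraries more weight, the ratio of its shares was 0.985, and edgeR over the 999 genes gave a log2 fold change of -0.03. Plxna4, another class A plexin, had 8, 1 and 0 UMIs (DG) and 4, 0 and 1 UMIs (CA1). Plxna1 had 7 UMIs in all, so that the 3 class A plexins held 37 of the 42 plexin UMIs. Of the neuropilins, Nrp2, the co-receptor of secreted semaphorins such as Sema3f, had 5, 2 and 1 UMIs (DG) and 1, 1 and 1 UMIs (CA1), and Nrp1 had 9 in all. Nrp2 was found in all 6 libraries at shares from 0.0107% to 0.0437%, with a log2 difference of 0.20 and an SD of 0.66 between sections. Plexins and neuropilins together held 62 UMIs, whereas the 7 semaphorin genes held 17.

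The semaphorins were led by Sema5a, a transmembrane semaphorin with 6 UMIs, and Sema6b had 5. Together the family took 14 UMIs in the DG and 3 in the CA1, or 0.0566% ± 0.0479 and 0.0140% ± 0.0121 of a library, and the ratio of the summed shares was 2.76 with a 95% interval of the odds ratio of 0.770 to 15.0. The DG had the higher share in 2 of 3 sections, so that it did not separate the regions. Sema6b, which is singled out here after its values were seen, had all of its 5 UMIs in the DG, where 62.8% of all UMIs lay.

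The netrin systems were led by Ntng1, which encodes netrin-G1, a membrane-anchored relative of the netrins that binds the postsynaptic protein encoded by Lrrc4c. In sections 1, 2 and 3 it reached 9, 1 and 2 UMIs for DG and 2, 3 and 0 for CA1. The CA1 libraries held both its highest share, 0.105% in section 2, and its lowest, 0 UMIs in section 3, so the SD between sections was 2.01 around a log2 difference of 0.34 (exact permutation p = 0.7). Of the netrins 1 gene was listed, Ntn3 with 5 UMIs, which overlaps exons of Tbc1d24 on the same strand and is uncertain for that reason. The 5 netrin receptors of the Unc5 and Dcc type held 17 UMIs, 12 in the DG and 5 in the CA1, and Unc5d had the most with 8. In CA1 section 2 these receptors were at 0 UMIs.

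Slit3, a secreted ligand of the Robo receptors, had 5, 1 and 1 UMIs (DG) and 1, 1 and 1 UMIs (CA1), and was found in all 6 libraries. Its log2 difference was -0.04 with an SD of 0.86 between sections, whereas the ratio of its summed shares was 1.38 and edgeR over the 999 genes with at least 10 UMIs gave a log2 fold change of 0.41 ± 1.14 (SE), so that its direction depended on the averaging. The 3 Slit genes held 6, 2 and 2 UMIs in the DG and 1 in each CA1 library. In 3 of 3 sections the DG had the higher summed share, at 0.0363% ± 0.00651 against 0.0221% ± 0.0123, but the ranges of the regions overlapped. The 95% interval of the odds ratio ran from 0.507 to 11.1, and this was also 1 of the 20 groupings that were summed. Robo3, the only listed Robo receptor, had 1 UMI.

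**Figure D3:**
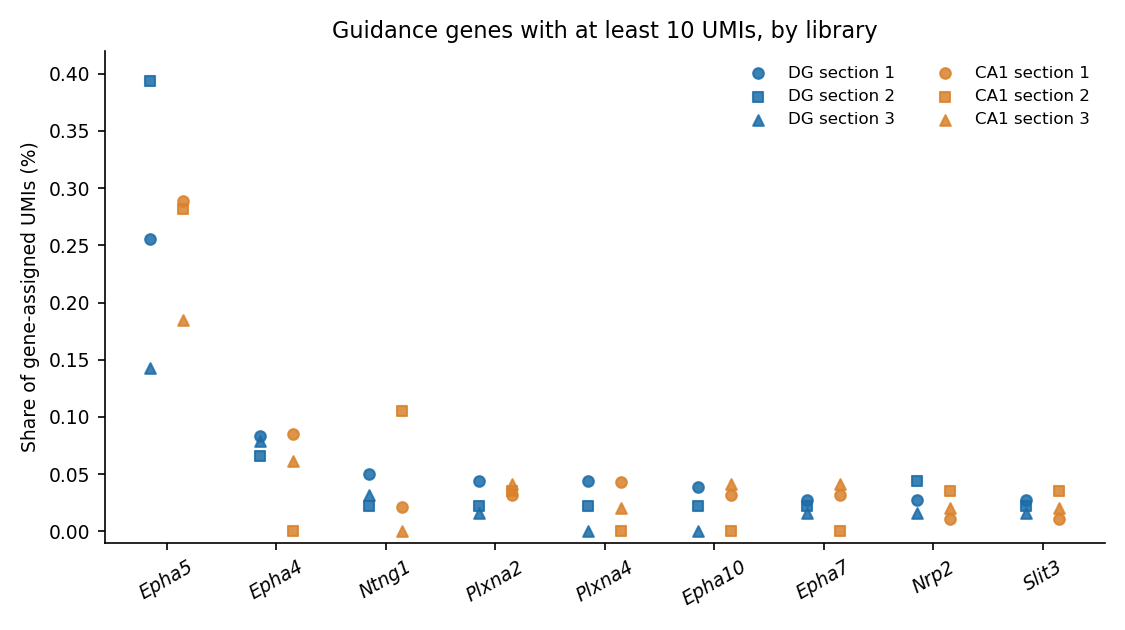
Share of gene-assigned UMIs (%, vertical axis) of the 9 guidance genes with at least 10 UMIs in each of the 6 libraries, DG in blue and CA1 in orange, with the marker giving the section. DG and CA1 points overlap for each of the 9 genes, and Epha5 lies above all the others in every library.

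None of the 9 guidance genes with at least 10 UMIs moved with the region in all sections. The DG share was higher in 3 of 3 sections for 0 of 9, where 13.8% of all 999 genes with at least 10 UMIs did so, and the CA1 share was higher in 3 of 3 sections for 0 of 9, against 11.8%. The regions did not overlap with the DG higher for 0 of 9, against 7.11% of the 999 genes, and with the CA1 higher for 0 of 9, against 5.11%. Exact permutation p-values of the 9 genes ran from 0.2 to 1 and adjusted values over all 999 genes from 0.9 to 1. In the edgeR fit of the same 999 genes, 0 genes were called and 52 had an unadjusted p under 0.05, of which 0 were guidance genes. With section as a block, 45 had an unadjusted p under 0.05 and 1 was called, Prkce (adjusted p = 0.0120), which is no guidance gene. Of the 9, 6 had a log2 fold change above 0, as had 54.5% of the 999 genes, and the medians were 0.08 for the 9 and 0.08 for the 999. At these depths the 95% intervals of the odds ratio of DG over CA1, from summed UMIs, were wide. They spanned 0.579 to 2.81 for Epha4 and 0.315 to 8.27 for Slit3. The intervals cover counting error and not the spread between sections, so the lack of calls does not show equal levels.

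The other members were rarely sampled. Of the 36 members, 8 had 5 to 9 UMIs, 7 had 2 to 4 and 12 had exactly 1, and the last are 33.3% of the members against 32.7% of all listed genes. UMIs in all 6 libraries were found for 4 members (11.1%) and for 5.25% of all listed genes. UMIs in both regions were found for 19 members, in the DG only for 13 (36.1%, against 35.2% of all listed genes) and in the CA1 only for 4 (11.1%, against 16.8%). The libraries held UMIs of 26, 18 and 18 members (DG) and of 20, 5 and 12 members (CA1) in sections 1, 2 and 3. Reduced to the 2844 UMIs of the smallest library, the expected number was 10.96, 12.8 and 10.1 for DG and, in sections 1 and 3, 10.5 and 8.85 for CA1, so at equal depth CA1 section 2, with 5, remained the library with the fewest members. These are 13.9% of the members in CA1 section 2 and 24.6% to 35.5% in the other 5 libraries, and of all listed genes 21.0% in CA1 section 2, also the lowest, and 21.7% to 22.6% in the others.

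Genes were also compared per kilobase of summed exon length. Each UMI stands for a captured molecule and priming was aimed at poly-A tails, so UMIs need not grow with exon length. Values per kilobase can therefore understate genes with long exons. By UMIs alone, Epha5 had 117 and Epha4 34. Epha5 had 15.0 UMIs per kilobase of exon, Epha4 5.37, Ntng1 3.11 and Epha10 2.20. The median per kilobase was 0.533 for the 36 members and 0.769 for the 7187 listed genes with a length. In UMIs the medians were level, at 3 for the members and 3 for all listed genes. The median exon length was 5.775 kb for the members and 3.623 kb for the 7187 genes. Epha5 was the highest member on both scales and the order of the first 3 was the same, while Plxna2 moved from number 4 by UMIs to number 10 per kilobase and Plxna4 from number 5 to number 13. Per kilobase Epha5 was 2.80 times as high as Epha4 (exact 95% interval 1.89 to 4.23) and higher in 6 of 6 libraries. Epha4 was 1.73 times as high as Ntng1 (0.940 to 3.30), and for each of the 6 further neighbours in the order of the 9 genes the interval of the ratio also included 1. Among all listed genes, Epha5 was number 138 per kilobase. Across the 36 members, Spearman's rho of UMIs with exon length was 0.44, and across all 7187 genes it was 0.24, a description over genes that share the same libraries.

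**Figure D4:**
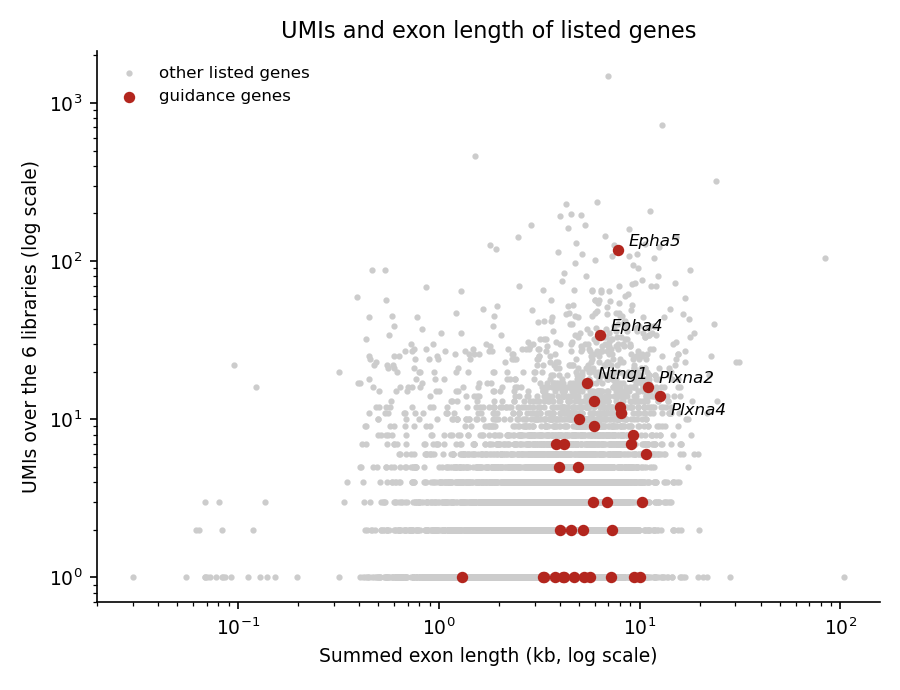
UMIs over the 6 libraries against summed exon length (kb) of the listed genes found in the RefSeq annotation, both on log scales, with the 36 guidance genes in red. Epha5, with 117 UMIs on 7.79 kb of exons, lies above all other guidance genes.

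Reverse transcription was primed with an oligo-dT primer, which is designed to bind poly-A tails and can also bind runs of A within a transcript. Runs of at least 10 A on the sense strand, which matches the transcript, were therefore searched for in exons of curated RefSeq transcripts (GRCm38.p6). They were found in 17 of 36 members (47.2%), in 46.9% of the listed genes with at least 10 UMIs and in 24.3% of all 7187 listed genes matched. Of the 9 members with at least 10 UMIs, 7 had such a run. Spearman's rho between UMIs and the longest run was 0.25 across the members and 0.24 across all 7187 genes. The 30-base windows around the longest run are shown for the 3 genes with the highest levels, with the run in capitals, 5′ to 3′ on the minus strand of all 3 genes: Epha5 at chr5:84416845-84416874 in the 5′ UTR part of exon 1, Epha4 at chr1:77368000-77368029 in the 3′ UTR part of its last exon, and Ntng1 at chr3:110143381-110143410 in the 5′ UTR part of exon 1 of its curated transcripts.
Epha5: gtggcacttAAAAAAAAAAAAgaagaagaa
Epha4: ataggtgtAAAAAAAAAAAAAAAgatgaac
Ntng1: gacaaaaaagAAAAAAAAAAAgacctaacg
The runs were of 12, 15 and 11 A. The deposited values are counts per gene, so whether any UMI of these genes began at such a run was not tested.

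Other genes of the guidance pathways, from a list of 75 downstream and co-receptor genes of which 62 were listed, held 580 UMIs. Their summed share was 1.20%, 1.09% and 1.25% for DG and 1.21%, 1.79% and 1.46% for CA1 in sections 1, 2 and 3. It was lower in the DG in 3 of 3 sections, by 0.01, 0.71 and 0.22 on the log2 scale, and the mean was 1.18% ± 0.0818 for DG and 1.49% ± 0.294 for CA1 with overlapping ranges (SD, n = 3). The summed share of 10 general neuron markers, of which Tubb3 is in both lists, also lay lower in the DG in 3 of 3 sections, at 0.856% to 0.897% against 0.908% to 1.48%, with CA1 section 2 the highest, as did that of 10 listed oligodendrocyte markers of 12, at 0.503% to 0.867% against 0.668% to 1.12%. Their part in the signalling values was not tested. Of the astrocyte markers 8 of 12 were listed, at 0.311% to 0.492% in the DG and 0.363% to 0.527% in the CA1, and the listed precursor (3 of 6), microglial (3 of 10), endothelial (3 of 8) and interneuron (5 of 10) markers held 13, 4, 6 and 19 UMIs in all. The 5 signalling genes with the most UMIs were Ppp3ca, the catalytic subunit of calcineurin, with 130, the kinases Pak3 and Gsk3b with 29 each, Kalrn with 27, and Flrt1, which encodes a membrane protein of the family that binds Unc5 receptors, with 21. Of the list 1 gene was among the 43 tested in the main edgeR fit and 19 were among the 999, and 0 were called in either, with 0 under an unadjusted p of 0.05 among the 19.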

How the data were processed

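BALI-Multiome RNA of 3 sections, each with a DG and a CA1 library, was analysed. The authors extracted UMIs with umi_tools, split reads by barcode with cutadapt 4.1, mapped them to mm10 with STAR 2.7.9a, assigned them to exons without regard to strand with featureCounts (Subread 2.0.3) and counted UMIs per gene. The deposited values are these counts with 1 added to each gene in each library, and the 1 was subtracted here. A line of totals was left out.

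All listed genes were fitted by edgeR 4.0.16 (quasi-likelihood, TMM, filterByExpr with a minimum count of 10, R 4.3.3), with region as the only term, p-values adjusted by Benjamini-Hochberg and called under 0.05. DESeq2 1.42.0 served as another tool. Permutation and Fisher's exact tests and exact intervals were made with scipy 1.17.1. The fit was also run on simulated counts that held no differences between sections, and no result given here rests on that run. Gene positions came from RefSeq GRCm38.p6, which matched 7187 of 7507 symbols and all 36 members. Since 1 piece of tissue gave the DG and the CA1 library of a section, libraries are paired by section number. Their deviations from the region means correlated at 0.155, 0.0648 and 0.0890 across 999 genes in sections 1, 2 and 3. Between DG and CA1 libraries of different sections the correlations ran from -0.106 to 0.0125. These values are not independent, since the deviations within a region sum to 0.

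The members, the signalling list and the marker lists were chosen with earlier results of these data known, and no sum over members was tested. Named with all UMIs were Epha5 and members with at least 10 UMIs, and by total the leading member of each family, members with 5 to 9 UMIs and the 5 leading signalling genes. No protein sequence was used here. Alternatives were other scalings, filters, pseudocounts and averages, a block for section, reduction of all libraries to 2844 UMIs in 20 draws and leaving out sections and libraries.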

Additional observations from a re-analysis of the deposited data

How the results depend on the processing

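No alternative gave a call for a guidance gene. The alternatives tested from 36 to 7507 genes, and the main fit tested 1 member, Epha5. Members that a filter removed could not be called in that fit. The number of genes called between DG and CA1 was 0 in 16 of 17 alternatives, leaving out each section or library included (0 to 0), and 1 with the replicate block over the 999 genes with at least 10 UMIs, which called Prkce (log2 fold change 2.24, adjusted p = 0.0120), no guidance gene. The cause of this call was not tested. The log2 difference of Epha5 from the permutation test, -0.04, kept its sign in 8 alternatives. Of these 8, the replicate block over the paired sections (exact sign-flip p = 1) averages the same values, so its -0.04 could not differ. The difference turned positive with counts as deposited (0.28) and with TMM library sizes (0.069). Leaving out each section or library in turn moved it from -0.39 to 0.33, with 5 of these 9 values above 0, and the p, from an exact permutation test except for the sign-flip test and for Fisher's exact test on summed UMIs, was 0.5 or higher in all 15 alternatives. The edgeR value of Epha5, 0.11, was 0.05 with the replicate block and turned negative with DESeq2 size factors (-0.0022), with total UMIs (-0.0019), with the replicate block and the filter of 10 UMIs (-0.011), without replicate 2 (-0.17), without DG replicate 2 (-0.14) and without CA1 replicate 3 (-0.10), and ran from -0.17 to 0.40 when sections or libraries were left out, with adjusted p from 0.753 to 1.00 over 17 alternatives. The log2 ratio of the summed guidance share, 0.30, ran from -0.0018 (without replicate 2) to 0.51 (without CA1 replicate 1) over 15 alternatives. The higher mean of the DG thus depended on section 2. The ratio was 0.45 without Epha5 and 0.30 as the mean of the ratios within paired sections, an alternative chosen after seeing the data. Depth limits all members: within sections the interval of the odds ratio of Epha5 reached from 0.271 to 2.20 in section 3. A count of 0 in the smallest library allows a share of up to 0.105% by the limit of 3 UMIs. By the exact 95% interval it allows up to 0.130%.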
